A study of Mus musculus with 24 samples.

Results

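The 46 genes described here encode proteins that copy DNA during the S phase of the cell cycle or that supply the copying with nucleotides and new chromatin. Members were the rows of the deposited count table that carry 1 of these 46 gene symbols, and all 46 were found among 55487 rows. All 46 were also among the 15527 genes that passed a filter on low counts. RNA was sequenced in bulk from Myc-CaP cells, a MYC-overexpressing prostate tumour line of the mouse, after drugs had been present for 6 days, with fresh medium and drug on a 3-day schedule. The design had 8 groups of 3 libraries, and every group shared the same line, which is 1 cell line in culture. Controls were given DMSO, a common drug solvent. Drugs acting on DNA or mitosis were 500 nM etoposide, a topoisomerase II poison that breaks DNA, 500 nM alisertib, an Aurora kinase A inhibitor, and 3.75 µM docetaxel, a microtubule stabiliser. Cell cycle kinases were targeted with PF-06873600 at 500 nM, which blocks CDK2 as well as CDK4 and CDK6, or with palbociclib at 1 µM, which blocks CDK4 and CDK6. The group T/P was read as palbociclib at that dose with 25 nM trametinib, an inhibitor of MEK, because the labels give trametinib to no other group. The last group received 500 nM Nutlin, which keeps MDM2 from binding p53. The series concerns senolytic treatment and chemotherapy in prostate cancer, and each comparison with DMSO asks how the RNA of the cells present after a treatment differed from that of cells given DMSO.

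DNA copying begins when origins bound by the origin recognition complex are loaded with helicase and activated with the help of GINS. DNA polymerase alpha with primase lays short primers, replication factor C loads the ring-shaped clamp PCNA, and polymerases epsilon and delta extend the leading and lagging strands. Replication protein A coats the single strands, FEN1 and DNA ligase 1 join the lagging-strand pieces, and ribonucleotide reductase, thymidylate synthase and thymidine kinase supply deoxynucleotides. Many of these genes are known E2F targets: they are repressed while RB and its relatives are unphosphorylated, and transcribed when cyclin-dependent kinases phosphorylate RB. p53 raises the CDK inhibitor p21 and so favours the repressed state.

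Each library held 21260781 to 28318784 counts in total, except Docetaxel 1 with 69757257. Epithelial markers were present in part: keratin 8 (Krt8) had 2577 counts over the 3 DMSO libraries, keratin 18 (Krt18) had 38 and E-cadherin (Cdh1) 9, while Epcam was at 0. Of 5 fibroblast markers 3 were at 0 counts in DMSO (Col1a2, Dcn and Lum), while Pdgfra had 1310 counts and Col1a1 6. Among endothelial markers 3 of 4 were at 0 in DMSO (Cdh5, Kdr and Tek), as were 4 of 5 leukocyte markers, all but Ptprc with 1 count. Library 2 had the lowest Neat1, a nuclear noncoding RNA, of its group in all 8 groups, as in DMSO 2 with 42.7 CPM (counts scaled to library size and composition), where DMSO 1 and DMSO 3 had 154 and 172. Whether libraries of 1 group came from separate cultures is not in the labels, so p-values here reflect spread among the sequenced libraries alone, which may be technical.

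The upstream sequences of 8 members, 4 with an E2F word and 4 without, are shown because many genes of this kind are known E2F targets. The choice of the 46 members did not use these letters, while the 8 shown were picked by them and with their RNA changes known. Each is the 250 bases before the RefSeq transcription start on GRCm38.p6, written 5′ to 3′ on the gene's strand, with the words TTTCGCGC, TTTGGCGC or GGCGGGAA (either strand) in capitals. Dtl lies on the minus strand (chr1:191575545-191575794), Orc1 on the plus strand (chr4:108579204-108579453), Rfc3 on the minus strand (chr5:151651209-151651458) and Prim1 on the plus strand (chr10:128014965-128015214). Pold3 on the minus strand (chr7:100121503-100121752) and Ung on the plus strand (chr5:114130185-114130434) hold no such word. Their RNA fell with etoposide, alisertib and docetaxel, where most called members rose. Asf1b on the plus strand (chr8:83955444-83955693) and Tk1 on the minus strand (chr11:117826015-117826264) hold none either. Their RNA rose with etoposide, alisertib and docetaxel, so of the members shown, some that rose and some that fell lack it. The GENCODE annotation starts every gene shown except Dtl inside its window, as at 83955507 for Asf1b and 117826092 for Tk1. Those windows thus hold some bases inside the annotated gene.
Dtl: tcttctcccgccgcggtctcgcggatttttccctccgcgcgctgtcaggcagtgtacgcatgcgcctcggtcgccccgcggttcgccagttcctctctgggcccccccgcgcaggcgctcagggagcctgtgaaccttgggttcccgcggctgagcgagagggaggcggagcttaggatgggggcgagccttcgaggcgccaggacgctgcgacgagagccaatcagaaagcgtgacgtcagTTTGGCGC
Orc1: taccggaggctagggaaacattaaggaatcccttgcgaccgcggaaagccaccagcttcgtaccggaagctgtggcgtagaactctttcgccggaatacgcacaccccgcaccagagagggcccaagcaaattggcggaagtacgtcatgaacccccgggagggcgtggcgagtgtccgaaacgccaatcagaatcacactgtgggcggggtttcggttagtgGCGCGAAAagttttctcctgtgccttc
Rfc3: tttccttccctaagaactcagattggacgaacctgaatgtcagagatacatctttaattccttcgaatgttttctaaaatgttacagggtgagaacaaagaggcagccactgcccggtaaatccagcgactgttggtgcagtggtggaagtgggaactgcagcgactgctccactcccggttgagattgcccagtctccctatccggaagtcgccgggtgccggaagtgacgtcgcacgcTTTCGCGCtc
Prim1: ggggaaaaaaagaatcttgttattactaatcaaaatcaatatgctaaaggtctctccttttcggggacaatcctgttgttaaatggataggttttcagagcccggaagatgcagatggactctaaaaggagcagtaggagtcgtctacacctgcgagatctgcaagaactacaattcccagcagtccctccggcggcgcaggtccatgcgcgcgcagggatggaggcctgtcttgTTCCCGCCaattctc
Pold3: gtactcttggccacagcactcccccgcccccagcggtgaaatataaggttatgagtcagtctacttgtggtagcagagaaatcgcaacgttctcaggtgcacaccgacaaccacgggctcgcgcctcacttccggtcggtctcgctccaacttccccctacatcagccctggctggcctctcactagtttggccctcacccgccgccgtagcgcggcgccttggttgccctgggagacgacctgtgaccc
Ung: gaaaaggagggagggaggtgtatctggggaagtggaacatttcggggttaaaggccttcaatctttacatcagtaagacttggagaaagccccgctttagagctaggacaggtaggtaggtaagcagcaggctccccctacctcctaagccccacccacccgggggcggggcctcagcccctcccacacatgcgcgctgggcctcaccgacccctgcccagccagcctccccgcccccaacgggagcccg
Asf1b: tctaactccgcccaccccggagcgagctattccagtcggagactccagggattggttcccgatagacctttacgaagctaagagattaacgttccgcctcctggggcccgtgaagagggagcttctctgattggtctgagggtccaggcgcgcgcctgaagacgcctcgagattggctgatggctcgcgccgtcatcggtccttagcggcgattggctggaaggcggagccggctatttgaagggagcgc
Tk1: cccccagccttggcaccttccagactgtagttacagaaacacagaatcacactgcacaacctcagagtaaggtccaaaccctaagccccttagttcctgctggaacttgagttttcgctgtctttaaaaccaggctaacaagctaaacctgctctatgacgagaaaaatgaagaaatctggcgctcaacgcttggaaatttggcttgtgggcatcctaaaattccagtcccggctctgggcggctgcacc
The word began 8 bases before the start in Dtl, 10 in Rfc3, 15 in Prim1 and 27 in Orc1. The RefSeq promoter table had an entry for 37 of the 46 members, not for Gins1, Gins2, Gins4, Prim2, Tipin, Rfc2, Pole, Usp1 or Dscc1. An E2F word lay within these 250 bases in 8 of the 37 (21.6%), namely Chaf1a, Dtl, Orc1, Pola1, Prim1, Rfc3, Rrm1 and Uhrf1, and in 2.85% of the 27025 genes of the table. The letters CCAAT, bound by the factor NF-Y, lay in 56.8% of members and 37.5% of all genes, the E-box CACGTG, a word that MYC can bind, in 16.2% and 6.86%, and TTTGAA, the word of late cell cycle genes, in 13.5% and 18.3%, with both strands searched. A match describes these letters and is not evidence of a site.

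In DMSO the members spanned a wide range of levels in TPM (transcripts scaled by length and depth), from 287 ± 16.96 TPM for Dut and 177 ± 23.8 for Rrm2 down to 3.82 ± 0.853 for Gins3, 3.23 ± 0.720 for Fen1 and 1.14 ± 0.170 for Dscc1 (SD, n = 3). Together they took 0.205% ± 0.0105 (SD, n = 3) of all counts in DMSO. That share was 0.409% ± 0.0147 with etoposide, 0.318% ± 0.00684 with alisertib, 0.292% ± 0.00903 with PF-06873600 and 0.269% ± 0.00637 with docetaxel. With T/P it was 0.202% ± 0.00875, with palbociclib 0.190% ± 0.0157 and with Nutlin 0.135% ± 0.0140. All libraries of the first 4 treatments lay above all DMSO libraries and all Nutlin libraries lay below them, while T/P and palbociclib overlapped with DMSO. In bulk RNA, a smaller or larger fraction of cells in S phase and a different amount of RNA per cell cannot be told apart.

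**Figure D1:**
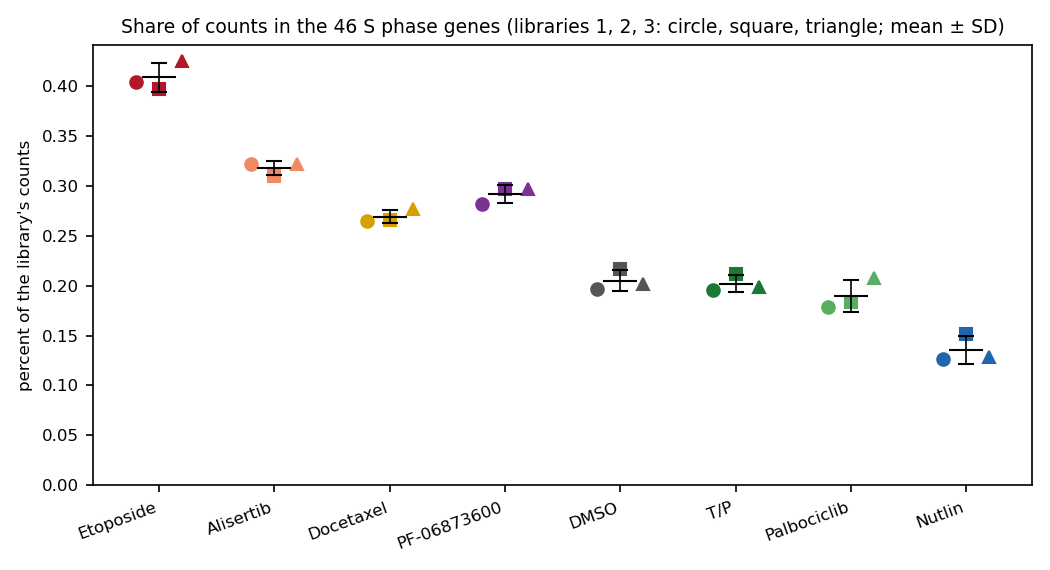
Share of all counts taken by the 46 DNA synthesis genes, in percent, for each of 24 libraries (points) with the group mean (line). Etoposide libraries lie highest, at 0.397% to 0.425%, and Nutlin libraries lowest, at 0.127% to 0.152%.

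As a description over the 24 libraries, which share groups and scaling, most members followed one another. The Pearson correlation of a member's log2 CPM with the mean of the other 45 had a median of 0.95, and 40 of 46 members were at 0.9 or above. The exceptions were Gins3 at 0.88, Rpa3 at 0.70, Rpa1 at 0.50, Ung at -0.16, Pold2 at -0.17 and Pold3 at -0.46. All 46 members differed among the 8 groups (edgeR quasi-likelihood test, Benjamini-Hochberg adjusted p under 0.05), where 76.7% of all tested genes did. By mean CPM, 41 members were highest in etoposide and 41 were lowest in Nutlin. The matching shares over all tested genes were not taken, so these counts only describe the members.

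Etoposide raised the DNA synthesis genes most often. Against DMSO, 41 of 46 members were called higher and 2 lower, where 27.7% of all tested genes were called higher and 26.9% lower (edgeR, adjusted p under 0.05). The median log2 fold change was 1.00 over the members and 0.02 over all tested genes, and 23 members were called with a rise of at least 2-fold against 14.5% of all genes. With alisertib 38 members were higher and 3 lower (27.8% and 26.1% of all genes), with a median of 0.66 against 0.03. Docetaxel gave 23 higher and 4 lower (26.5% and 22.5% of all genes) and a median of 0.25 against 0.04. PF-06873600 gave 32 higher and 1 lower (17.9% and 14.1% of all genes) and a median of 0.51 against 0.03. With the library number as a block it gave 37 higher, adding Pold1, Rfc1, Rpa1, Gins1 and Tipin. Scaling to library totals instead of TMM moved the all-gene median by 0.20 (alisertib), 0.21 (docetaxel) and 0.21 (etoposide), and raised the docetaxel count to 36 members higher and 3 lower. Changes are therefore given relative to the TMM scaling.

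Markers of other cell types also stood higher in several of these groups, at low levels. The sums cover 4 of 5 fibroblast and 3 of 5 leukocyte markers and all of the others, as the TPM table lists them. Fibroblast markers summed to 3.71 to 6.43 TPM in the DMSO libraries, 9.39 to 11.1 with alisertib, 8.699 to 9.67 with docetaxel, 7.54 to 8.52 with PF-06873600 and 5.87 to 8.43 with etoposide. Only the etoposide range overlapped with DMSO. Over the 24 libraries Pdgfra had 13322 counts, against 299 for Col1a1, 264 for Dcn and 23 for Col1a2. The fibroblast sums thus rest mainly on Pdgfra. Basal epithelial markers (Krt5, Krt14 and Trp63) summed to 0.199 to 0.355 TPM in DMSO, 2.85 to 3.24 with etoposide, 0.870 to 1.29 with alisertib, 0.715 to 1.12 with docetaxel and 0.489 to 0.813 with PF-06873600, and all 3 were at 0 counts with Nutlin. Endothelial markers summed to at most 0.0384 TPM in DMSO, 0.559 to 1.21 with etoposide, 0.686 to 0.961 with alisertib, 0.818 to 1.92 with docetaxel and 0.108 to 0.367 with PF-06873600. Leukocyte markers summed to at most 0.00636 TPM in DMSO and at most 0.443 in any library, and Lum was at 0 counts in all 24. Apart from fibroblast markers with etoposide, these sums were above all DMSO libraries in etoposide, alisertib, docetaxel and PF-06873600, and their part in the results was not tested.

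Palbociclib, T/P and Nutlin had few or no members called higher. Palbociclib gave 2 members higher and 20 lower, where 18.5% and 17.4% of all genes were called, with a median log2 fold change of -0.24 against 0.04. The 2 called higher, Pole and Tk1, were both lost without DMSO 1, DMSO 2, Palbociclib 1 or Palbociclib 3, and Pole, not Tk1, was also lost without DMSO 3 or Palbociclib 2. With T/P none was called higher by edgeR or by DESeq2, 2 had an unadjusted p under 0.05 (Rfc3 and Fen1), and 11 were lower (15.1% of all genes higher and 14.6% lower), with a median of -0.11 against 0.01. Leaving out DMSO 3 or T/P 1 gave 1 member higher. Nutlin gave 42 members lower and none higher by either tool or at an unadjusted p under 0.05 (11.4% of all genes lower and 8.02% higher). The median was -0.72 against 0.00, and 14 members were called at least 2-fold lower, where 2.90% of all genes were. Nutlin 2 held the highest level of many members among the 3 Nutlin libraries and also the lowest Neat1, at 67.7 CPM against 299 and 479.6, and the part of this in the result was not tested. In a fit without the libraries numbered 2, 38 members were lower with Nutlin. These 7 comparisons share the DMSO libraries.

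**Figure D2:**
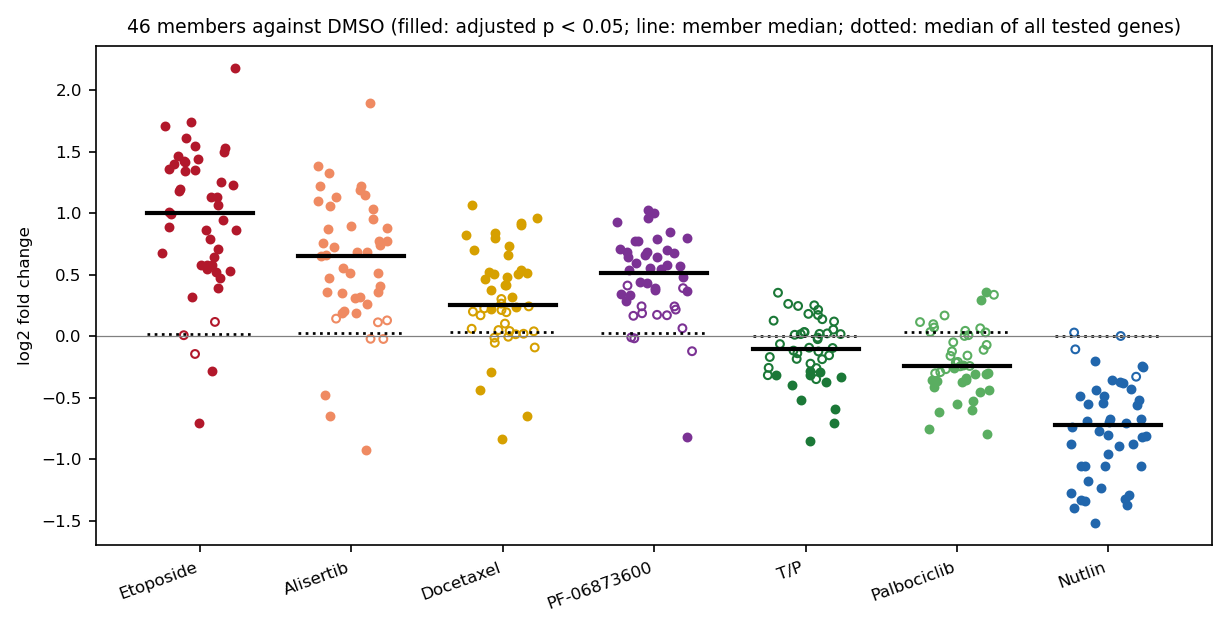
Log2 fold change of each of the 46 members against DMSO under the 7 treatments (filled points passed at adjusted p under 0.05), with the member median (line) and the median of all tested genes (dotted line). The medians run from 1.00 with etoposide to -0.72 with Nutlin, while the medians of all genes stay near 0.

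**Figure D3:**
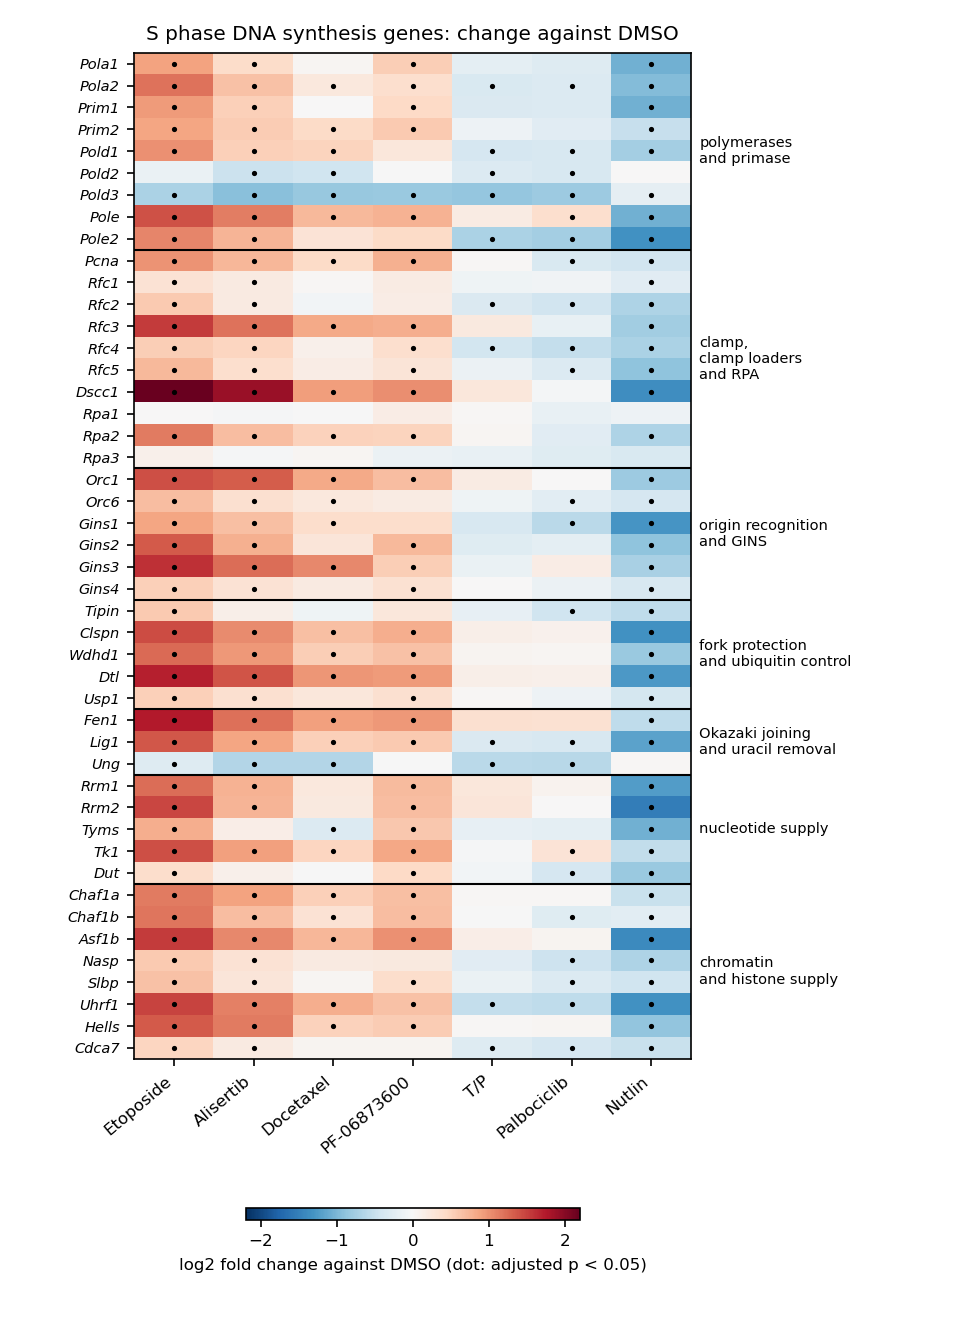
Log2 fold change against DMSO (colour) for every member (rows, ordered by role) and treatment (columns), with a dot where adjusted p was under 0.05. Pold3 is the row lower under every treatment, and Rpa1 and Rpa3 carry no dot.

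The polymerase and primase genes rose with etoposide in 7 of 9 cases and fell with Nutlin in 8 of 9 (27.7% and 11.4% of all tested genes). Pole encodes the catalytic subunit of polymerase epsilon. Its level was 25.8, 30.8 and 32.9 CPM in the DMSO libraries, 86.9, 66.5 and 82.6 with etoposide, 67.5, 59.2 and 69.3 with alisertib, 35.9, 35.2 and 43.97 with palbociclib and 13.00, 18.5 and 11.7 with Nutlin. Etoposide and alisertib libraries lay above DMSO without overlap, palbociclib libraries lay just above it, and Nutlin libraries lay below. Here and below a change is the log2 fold change against DMSO ± its standard error, with the edgeR p adjusted over all tested genes. It was 1.40 ± 0.138, adjusted p = 9.67e-09 with etoposide, 1.13 ± 0.138, adjusted p = 3.32e-07 with alisertib and -1.05 ± 0.148, adjusted p = 1.33e-05 with Nutlin. The palbociclib rise of 0.36 ± 0.139, adjusted p = 0.0456 was lost without any 1 of the 6 DMSO and palbociclib libraries. Pole2, an accessory subunit of the same polymerase, had 6.501, 5.55 and 4.31 CPM in DMSO, 2.62, 2.78 and 4.29 with palbociclib, 3.18, 4.12 and 2.75 with T/P and 6.84, 7.72 and 7.19 with PF-06873600. Its palbociclib and T/P libraries lay below all DMSO libraries, and the PF-06873600 libraries above them. Pole2 fell with palbociclib (-0.75 ± 0.208, adjusted p = 0.00670) and with T/P (-0.70 ± 0.206, adjusted p = 0.0116), the latter call being lost without DMSO 1 or T/P 3, and its PF-06873600 difference of 0.41 ± 0.194, adjusted p = 0.113 did not pass.

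Pola1, the catalytic subunit of the priming polymerase alpha, was at 26.2, 30.96 and 28.1 CPM in DMSO. It was at 44.9, 55.5 and 57.8 with etoposide, 35.99, 39.3 and 37.9 with alisertib, 37.3, 44.8 and 41.9 with PF-06873600 and 26.8, 30.01 and 31.3 with docetaxel. It was at 23.7, 24.8 and 24.6 with T/P, 18.96, 22.7 and 28.05 with palbociclib and 9.77, 19.9 and 11.3 with Nutlin. The etoposide, alisertib and PF-06873600 libraries stood above DMSO and the T/P and Nutlin libraries below it, and docetaxel and palbociclib libraries overlapped with DMSO. The rise was 0.89 ± 0.163, adjusted p = 6.44e-05 with etoposide (edgeR) and the fall -1.05 ± 0.174, adjusted p = 9.96e-05 with Nutlin. With alisertib the rise was 0.41 ± 0.163, adjusted p = 0.0389, a call lost without DMSO 1, DMSO 3 or any 1 of the alisertib libraries. With PF-06873600 it was 0.54 ± 0.163, adjusted p = 0.0136, lost without DMSO 1, DMSO 3 or PF-06873600 2. Docetaxel (0.04 ± 0.163, adjusted p = 0.848), palbociclib (-0.29 ± 0.167, adjusted p = 0.181) and T/P (-0.22 ± 0.166, adjusted p = 0.350) gave no call. The partner subunit Pola2 and the primase subunits Prim1 and Prim2 were called higher with etoposide, alisertib and PF-06873600 and lower with Nutlin, and Pola2 and Prim2 also higher with docetaxel. Prim1 with PF-06873600 lost its call without DMSO 3, PF-06873600 2 or PF-06873600 3, Prim2 with Nutlin without Nutlin 1 or Nutlin 3, and Pola2 with docetaxel without DMSO 1, DMSO 3 or Docetaxel 3.

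Pold3, an accessory subunit of polymerase delta that also serves break-induced replication, was lower under every treatment, including those in which most called members rose. It was at 42.1, 41.7 and 41.6 CPM in the 3 DMSO libraries, 25.2, 25.4 and 26.4 with etoposide, 21.5, 21.8 and 22.7 with alisertib and 22.7, 24.01 and 23.7 with docetaxel. With PF-06873600 it was at 24.99, 21.7 and 24.4, with T/P at 24.6, 22.6 and 22.5, with palbociclib at 24.2, 23.8 and 24.3 and with Nutlin at 36.5, 37.5 and 35.2. All 21 treated libraries lay below all DMSO libraries, those of Nutlin the least. The log2 fold change was -0.93 ± 0.0619, adjusted p = 1.78e-11 with alisertib (edgeR), -0.85 ± 0.0619, adjusted p = 2.66e-10 with T/P, -0.83 ± 0.0611, adjusted p = 1.39e-10 with docetaxel and -0.82 ± 0.0618, adjusted p = 4.77e-10 with PF-06873600. It was -0.79 ± 0.0619, adjusted p = 8.45e-10 with palbociclib, -0.70 ± 0.0614, adjusted p = 1.28e-09 with etoposide and -0.20 ± 0.0609, adjusted p = 0.0224 with Nutlin. The first 6 calls held in every alternative run, while the Nutlin call was lost without any 1 of DMSO 1, DMSO 2, DMSO 3, Nutlin 1 or Nutlin 3, with no low-count filter, in a fit of the 2 groups alone and without the libraries numbered 2. Pold2, another small subunit of polymerase delta, was at 81.1, 85.7 and 78.3 CPM in DMSO, 59.04, 62.1 and 55.3 with alisertib, 59.7, 68.1 and 53.9 with docetaxel, 83.1, 83.4 and 77.2 with PF-06873600 and 84.05, 82.3 and 79.2 with Nutlin. Alisertib and docetaxel libraries lay below DMSO, and PF-06873600 and Nutlin libraries overlapped with it. Pold2 fell with alisertib (-0.47 ± 0.0756, adjusted p = 1.37e-05), docetaxel (-0.43 ± 0.0752, adjusted p = 5.22e-05), palbociclib (-0.35 ± 0.0756, adjusted p = 0.000814) and T/P (-0.29 ± 0.0754, adjusted p = 0.00458). With etoposide its change of -0.14 ± 0.0752, adjusted p = 0.112 was not called, and it was called lower with the library number as a block (adjusted p = 0.0252, edgeR, the lowest of 14 alternatives, which reached 0.403). The catalytic subunit Pold1 was called higher with etoposide, alisertib and docetaxel and lower with palbociclib, T/P and Nutlin.

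Among the clamp, clamp loader and RPA genes, 8 of 10 rose with etoposide and with alisertib and 8 of 10 fell with Nutlin. Of all tested genes, 27.7%, 27.8% and 11.4% did. Pcna, the sliding clamp, was at 116, 118 and 105 CPM in DMSO. It was at 217, 239 and 219.8 with etoposide, 186, 201 and 194 with PF-06873600, 188, 198 and 175 with alisertib and 148, 159 and 146 with docetaxel. It was at 106, 121 and 117 with T/P, 83.7, 85.4 and 98.99 with palbociclib and 77.4, 96.7 and 78.2 with Nutlin. The first 4 treatments stood above DMSO, palbociclib and Nutlin stood below it, and T/P overlapped. Pcna changed by 0.99 ± 0.0843, adjusted p = 7.81e-10 with etoposide (edgeR), 0.78 ± 0.0841, adjusted p = 1.53e-07 with PF-06873600, 0.73 ± 0.0841, adjusted p = 1.46e-07 with alisertib and 0.42 ± 0.0838, adjusted p = 0.000241 with docetaxel. It fell with palbociclib (-0.34 ± 0.0846, adjusted p = 0.00319) and Nutlin (-0.43 ± 0.0849, adjusted p = 0.000756), and the T/P change was 0.02 ± 0.0841, adjusted p = 0.889. Processed copies named Pcna-ps1 and Pcna-ps2 are annotated, so that reads may be shared with them.

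Dscc1, a subunit of the alternative clamp loader built on CTF18, showed the largest rise of any member with etoposide and with alisertib, from a low base. It was at 2.05, 1.53 and 1.83 CPM in DMSO, 8.73, 7.24 and 8.61 with etoposide, 7.27, 6.26 and 6.68 with alisertib, 3.43, 2.81 and 4.02 with docetaxel, 3.52, 3.096 and 4.43 with PF-06873600 and 0.448, 1.04 and 0.574 with Nutlin. The 4 former treatments did not overlap with DMSO and lay above it, and Nutlin lay below. The change was 2.18 ± 0.211, adjusted p = 6.95e-09 with etoposide, a 4.53-fold rise (edgeR), and 1.90 ± 0.212, adjusted p = 8.72e-08 with alisertib, a 3.73-fold rise. It was 1.03 ± 0.218, adjusted p = 0.000753 with PF-06873600, 0.92 ± 0.215, adjusted p = 0.00108 with docetaxel and -1.37 ± 0.270, adjusted p = 0.000672 with Nutlin. Rfc3, a subunit of the main clamp loader, went from 11.8, 12.8 and 10.9 CPM in DMSO to 32.6, 35.5 and 35.4 with etoposide, all above DMSO (1.55 ± 0.0929, adjusted p = 2.06e-12), while the large subunit Rfc1 went from 111, 132 and 122 to 142, 154 and 158 (0.32 ± 0.0724, adjusted p = 0.000716). Rpa1 and Rpa3, the large and small subunits of replication protein A, were called in no comparison with DMSO by this fit. Rpa1 was at 307, 367 and 334 CPM in DMSO, 320.5, 362 and 333 with etoposide and 302, 329 and 306 with Nutlin, which overlapped. Its log2 fold change with etoposide was 0.01, with a 95% interval of -0.14 to 0.16, and that of Rpa3 was 0.12, with an interval of -0.16 to 0.39. With the library number as a block, Rpa1 was called higher with PF-06873600 (0.17, adjusted p = 0.00566, in a range of 0.000666 to 0.540 over 14 alternatives) and Rpa3 lower with Nutlin (-0.34, adjusted p = 0.0291, in a range of 0.00421 to 0.487). With library totals as scaling, Rpa1 stood at 0.18 with alisertib and 0.20 with docetaxel, below the all-gene medians of 0.22 and 0.25 under that scaling. The main fit gave Rpa1 -0.02 with alisertib and -0.01 with docetaxel. Rpa2, the middle subunit, did rise with etoposide, from 21.5, 21.1 and 22.3 to 47.8, 49.2 and 45.4 CPM without overlap (1.13 ± 0.115, adjusted p = 1.43e-08).

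All 6 genes of origin recognition and GINS were called higher with etoposide and with alisertib and lower with Nutlin (27.7%, 27.8% and 11.4% of all tested genes). With docetaxel and with PF-06873600 4 of 6 were higher (26.5% and 17.9% of all genes). With palbociclib 2 were lower, where 17.4% of all genes were, and this count is not read as a result about the set. With the library number as a block, Gins1 was called higher with PF-06873600 too, making 5 of 6 (0.40, adjusted p = 0.0254, edgeR, in a range of 0.0163 to 0.29 over 14 alternatives). Orc1, the largest subunit of the origin recognition complex, was at 4.89, 6.798 and 6.06 CPM in DMSO, 16.6, 16.3 and 14.8 with etoposide, 15.8, 14.2 and 14.6 with alisertib and 2.49, 4.63 and 3.001 with Nutlin. Etoposide and alisertib lay far above DMSO and Nutlin lay below it. The change was 1.43 ± 0.151, adjusted p = 2.85e-08 with etoposide (edgeR), 1.33 ± 0.151, adjusted p = 1.11e-07 with alisertib and -0.80 ± 0.170, adjusted p = 0.00143 with Nutlin. Gins3, a subunit of the GINS complex of the replicative helicase, had the largest docetaxel rise of any member, with 3.14, 4.73 and 3.23 CPM in DMSO and 7.16, 8.12 and 8.04 with docetaxel, without overlap (1.06 ± 0.163, adjusted p = 1.09e-05, 2.09-fold). Gins1 had the largest fall of this set with Nutlin, at 3.14, 3.77 and 1.85 CPM against 6.195, 8.29 and 6.94 in DMSO, again without overlap (-1.29 ± 0.180, adjusted p = 1.13e-05). Gins1 also fell with palbociclib, where its libraries were at 5.03, 4.81 and 4.29 CPM (-0.60 ± 0.168, adjusted p = 0.00750). Some of these calls rested on single libraries. Gins1 with docetaxel was lost without DMSO 1, DMSO 3, Docetaxel 2 or Docetaxel 3, and Orc6 with docetaxel without any DMSO library, Docetaxel 1 or Docetaxel 3. Orc6 with palbociclib was lost without DMSO 1, DMSO 2, Palbociclib 1 or Palbociclib 2, Gins3 with PF-06873600 without DMSO 1, DMSO 3 or PF-06873600 1, and Gins4 with PF-06873600 without DMSO 3 or PF-06873600 2. With Nutlin, Gins3 was lost without DMSO 2 and Gins4 without Nutlin 1. Exons of Gse1 on the other strand cover 67.3% of the exon bases of Gins2, and the strand setting of the counting is not given in the sources used here, so the level of Gins2 is uncertain. Smaller overlaps on the other strand were 15.1% for Rfc2, 12.7% for Rfc4, 10.8% for Orc1 and 10.7% for Rfc5. The same limit holds for these genes to a lesser extent.

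The fork protection and ubiquitin control genes all rose with etoposide and all fell with Nutlin (5 of 5 each, against 27.7% and 11.4% of all tested genes). Dtl encodes the substrate receptor of the ubiquitin ligase that destroys the licensing factor CDT1 in S phase, and its E2F word is printed above. Its level was 17.8, 20.1 and 19.1 CPM in DMSO, 57.2, 62.6 and 66.96 with etoposide, 47.4, 50.96 and 50.2 with alisertib, 35.7, 37.4 and 38.3 with docetaxel, 34.6, 37.6 and 36.6 with PF-06873600 and 6.73, 10.6 and 6.18 with Nutlin. No treated library of these 5 groups overlapped with DMSO. The change was 1.71 ± 0.118, adjusted p = 2.18e-11 with etoposide (edgeR), 1.38 ± 0.118, adjusted p = 1.14e-09 with alisertib, 0.97 ± 0.117, adjusted p = 4.53e-07 with docetaxel, 0.93 ± 0.118, adjusted p = 1.51e-06 with PF-06873600 and -1.27 ± 0.132, adjusted p = 2.51e-07 with Nutlin. Clspn, which carries the checkpoint signal from ATR to CHK1, was at 13.5, 17.3 and 15.4 CPM in DMSO, 36.5, 41.6 and 47.5 with etoposide and 4.38, 9.05 and 4.72 with Nutlin. These groups did not overlap, and the changes were 1.44 ± 0.160, adjusted p = 5.93e-08 and -1.34 ± 0.181, adjusted p = 8.06e-06. Tipin, the partner of TIMELESS in fork protection, fell with palbociclib, from 30.1, 34.2 and 27.9 to 21.4, 22.4 and 24.2 CPM without overlap (-0.44 ± 0.0988, adjusted p = 0.00133), whereas Clspn, Wdhd1, Dtl and Usp1 were not called there. With T/P none of the 5 was called in either direction.

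Fen1, the flap nuclease of lagging-strand maturation, and Lig1, the ligase that seals the pieces, were among the stronger risers. Fen1 was at 2.62, 2.36 and 3.35 CPM in DMSO, 9.11, 10.1 and 8.79 with etoposide and 4.73, 5.99 and 5.53 with PF-06873600, without overlap (1.74 ± 0.150, adjusted p = 9.54e-10 and 0.96 ± 0.153, adjusted p = 3.19e-05, edgeR). Exons of Tmem258 and Gm10143 on the opposite strand cover 84.2% of its exon bases, so its level and its change are uncertain. Lig1 was at 39.6, 39.4 and 38.5 CPM in DMSO, 102, 99.9 and 100.4 with etoposide, 27.95, 28.6 and 35.1 with palbociclib and 14.6, 22.3 and 14.9 with Nutlin. Etoposide lay above DMSO, and palbociclib and Nutlin lay below it. The changes were 1.36 ± 0.105, adjusted p = 1.50e-10, -0.36 ± 0.107, adjusted p = 0.0111 and -1.18 ± 0.112, adjusted p = 6.94e-08. Ung, the glycosylase that removes uracil from DNA, fell with etoposide, alisertib and docetaxel, where both rose. Ung also fell with palbociclib and T/P, as Lig1 did. It was at 17.2, 17.1 and 18.1 CPM in DMSO, 12.4, 11.03 and 10.04 with alisertib, 10.9, 11.5 and 11.04 with docetaxel, 11.3, 11.3 and 11.5 with palbociclib and 11.04, 11.4 and 12.3 with T/P. It was at 13.8, 15.5 and 13.8 with etoposide, 16.8, 17.4 and 17.6 with PF-06873600 and 17.7, 16.9 and 18.9 with Nutlin. The 4 former groups and etoposide lay below all DMSO libraries, and PF-06873600 and Nutlin overlapped with DMSO. Ung fell by 0.64 with alisertib, 0.65 with docetaxel, 0.62 with palbociclib and 0.59 with T/P on the log2 scale, each at an adjusted p of at most 6.47e-06. The etoposide fall of -0.28 ± 0.0810, adjusted p = 0.00550 was lost with library totals, with no low-count filter and in a fit of the 2 groups alone.

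**Figure D4:**
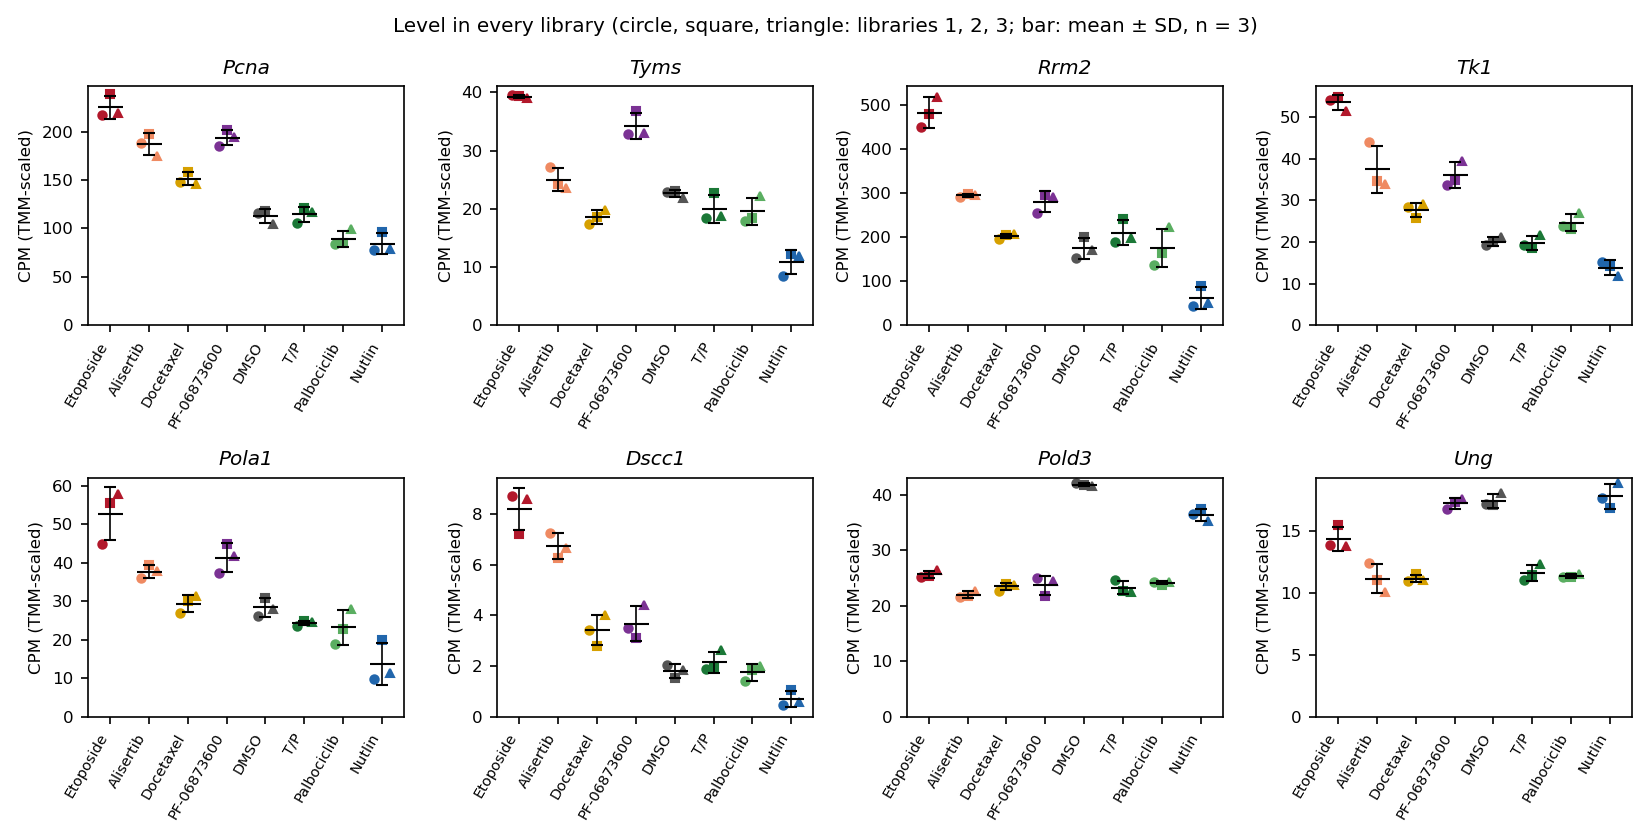
CPM of 8 members in every library (points), with the mean and SD of each group of 3, in a panel per gene with its own axis from 0. Etoposide libraries are highest for Pcna, Tyms, Rrm2 and Tk1, whereas DMSO libraries are highest for Pold3.

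The nucleotide supply genes were called higher in 5 of 5 cases with etoposide and with PF-06873600 and lower in 5 of 5 with Nutlin. Of all tested genes, 27.7%, 17.9% and 11.4% were. Rrm2 encodes the small subunit of ribonucleotide reductase, whose supply limits the making of deoxynucleotides in S phase. It was at 154, 201 and 169.9 CPM in DMSO, 451, 479 and 519.8 with etoposide, 291, 298 and 297 with alisertib, 255, 297 and 292 with PF-06873600 and 197, 205 and 206 with docetaxel. It was at 190.1, 242 and 198 with T/P, 138, 165 and 223 with palbociclib and 44.1, 89.7 and 49.6 with Nutlin. Etoposide, alisertib and PF-06873600 lay above DMSO, Nutlin lay below it, and the other 3 groups overlapped with it. Rrm2 rose by 1.47 ± 0.183, adjusted p = 3.63e-07 with etoposide (edgeR), 0.76 ± 0.180, adjusted p = 0.00117 with alisertib and 0.68 ± 0.180, adjusted p = 0.00499 with PF-06873600. Its fall with Nutlin, -1.51 ± 0.187, adjusted p = 2.37e-06 or 2.86-fold, was the largest of any member. The palbociclib change was 0.00 ± 0.180, adjusted p = 0.997, with a 95% interval of -0.37 to 0.38, and the docetaxel change 0.21 ± 0.180, adjusted p = 0.344.

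Tyms makes thymidylate and is the target of fluorouracil. It was at 22.9, 23.05 and 21.9 CPM in DMSO, 39.5, 39.4 and 38.96 with etoposide, 32.8, 36.8 and 32.96 with PF-06873600, 27.2, 24.3 and 23.6 with alisertib and 17.4, 18.5 and 19.7 with docetaxel. It was at 18.3, 22.8 and 18.7 with T/P, 17.9, 18.5 and 22.3 with palbociclib and 8.52, 12.3 and 11.8 with Nutlin. Etoposide, PF-06873600 and alisertib libraries lay above DMSO, docetaxel and Nutlin libraries below it, and T/P and palbociclib libraries overlapped with it. Tyms rose with etoposide (0.79 ± 0.107, adjusted p = 1.09e-06, edgeR) and PF-06873600 (0.59 ± 0.107, adjusted p = 0.000139) and fell with Nutlin (-1.05 ± 0.115, adjusted p = 5.04e-07). It fell with docetaxel (-0.29 ± 0.108, adjusted p = 0.0280), a call lost without Docetaxel 1, without the libraries numbered 2 and with library totals, and the alisertib change of 0.14 ± 0.108, adjusted p = 0.270 was not called. A pseudogene, Tyms-ps, is annotated. Tk1, the salvage kinase for thymidine, was at 19.2, 19.9 and 21.2 CPM in DMSO, 54.2, 54.9 and 51.6 with etoposide, 33.7, 35.03 and 39.6 with PF-06873600, 23.8, 23.2 and 27.02 with palbociclib and 15.3, 14.3 and 11.9 with Nutlin. The first 3 treatments lay above DMSO and Nutlin below. Its change was 1.41 ± 0.102, adjusted p = 5.13e-11 with etoposide, 0.90 ± 0.102, adjusted p = 1.14e-07 with alisertib, 0.85 ± 0.103, adjusted p = 7.83e-07 with PF-06873600, 0.47 ± 0.102, adjusted p = 0.000628 with docetaxel and -0.54 ± 0.108, adjusted p = 0.000802 with Nutlin. The palbociclib rise of 0.30 ± 0.104, adjusted p = 0.0295 was lost without DMSO 1, DMSO 2, Palbociclib 1 or Palbociclib 3.

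All 8 genes of chromatin and histone supply rose with etoposide and with alisertib and all 8 fell with Nutlin, and 5 fell with palbociclib. Of all tested genes, 27.7% rose with etoposide and 27.8% with alisertib, and 11.4% fell with Nutlin and 17.4% with palbociclib. Asf1b, a histone chaperone that feeds new histones to the fork, was at 18.3, 19.9 and 16.6 CPM in DMSO, 51.2, 57.3 and 50.2 with etoposide, 34.5, 40.2 and 34.97 with PF-06873600 and 5.58, 8.92 and 6.18 with Nutlin. None of these 3 groups overlapped with DMSO. The change was 1.53 ± 0.122, adjusted p = 2.53e-10 with etoposide (edgeR), 1.00 ± 0.122, adjusted p = 8.42e-07 with PF-06873600 and -1.40 ± 0.138, adjusted p = 1.11e-07 with Nutlin. Uhrf1, which carries DNA methylation onto the new strand through DNMT1, was at 59.03, 66.4 and 63.04 CPM in DMSO, 170.3, 188 and 173 with etoposide, 42.7, 42.98 and 45.6 with T/P, 39.1, 42.4 and 47.2 with palbociclib and 18.5, 35.95 and 20.4 with Nutlin. Etoposide lay above DMSO and the other 3 groups lay below it. Uhrf1 changed by 1.5 ± 0.138, adjusted p = 3.22e-09 with etoposide, -0.52 ± 0.139, adjusted p = 0.00609 with T/P, -0.55 ± 0.140, adjusted p = 0.00361 with palbociclib and -1.33 ± 0.145, adjusted p = 4.95e-07 with Nutlin. Hells, a chromatin remodeller needed for DNA methylation, was at 28.1, 34.1 and 28.2 CPM in DMSO and 27.8, 31.2 and 34.3 with palbociclib, which overlapped (0.04 ± 0.132, adjusted p = 0.822). Chaf1b, a subunit of chromatin assembly factor 1, changed least with Nutlin in this set (-0.24 ± 0.0798, adjusted p = 0.0376), a call lost without DMSO 1, DMSO 2, Nutlin 1 or Nutlin 3. Exons of Ubxn6 on the opposite strand cover 52.5% of the exon bases of Chaf1a, the other large subunit measured, and its values are uncertain for that reason.

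The CDK inhibitors differed from each other. PF-06873600 against palbociclib gave 43 of 46 members higher and none lower by edgeR or DESeq2, and none lower at an unadjusted p under 0.05, where 14.4% of all genes were higher and 11.7% lower. The median log2 difference was 0.68 over the members and 0.01 over all genes. Pcna was at 186, 201 and 194 CPM with PF-06873600 and 83.7, 85.4 and 98.99 with palbociclib, without overlap (1.12 ± 0.0849, adjusted p = 4.85e-09). The largest differences were those of Uhrf1 (1.20 ± 0.140, adjusted p = 2.11e-06), with 97.99, 99.6 and 97.6 against 39.1, 42.4 and 47.2 CPM, and Pole2 (1.17 ± 0.204, adjusted p = 0.000223). Pold3, Rpa3 and Gins3 were not called. Pold3 was at 23.7 ± 1.75 CPM with PF-06873600 and 24.1 ± 0.273 with palbociclib (SD, n = 3), a difference of -0.03 ± 0.0627, adjusted p = 0.800 with a 95% interval of -0.16 to 0.10. Doses differed, 500 nM against 1 µM, so the comparison holds for these doses.

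T/P and palbociclib differed in few members. T/P against palbociclib gave 2 higher, Pcna and Rfc3, and none lower by edgeR or DESeq2, with Tk1 lower at an unadjusted p under 0.05, where 1.64% of all genes were higher and 2.47% lower. The median difference was 0.08 over the members. Pcna was at 106, 121 and 117 CPM with T/P and 83.7, 85.4 and 98.99 with palbociclib, without overlap (0.36 ± 0.0845, adjusted p = 0.0191), and Rfc3 at 12.2, 14.2 and 14.7 and 10.3, 9.34 and 12.04 (0.37 ± 0.0962, adjusted p = 0.0300). Both calls were lost without T/P 2, Palbociclib 1 or Palbociclib 2, and Rfc3 also without T/P 3, while leaving out T/P 1 gave 3 members higher.

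The DNA damaging and antimitotic drugs were compared in 3 pairs. Etoposide against docetaxel gave 43 members higher and none lower by edgeR or DESeq2 or at an unadjusted p under 0.05 (14.2% of all genes higher and 16.2% lower), with a median of 0.63 against -0.05 over all genes. Rrm2 was at 451, 479 and 519.8 CPM with etoposide and 197, 205 and 206 with docetaxel, far apart (1.25 ± 0.181, adjusted p = 1.39e-05), and Dscc1 differed by 1.26 ± 0.193, adjusted p = 2.80e-05. Alisertib against docetaxel gave 20 higher and none lower by either tool (8.81% and 8.62% of all genes), with a median of 0.31, and 9 higher without Docetaxel 1, the most deeply sequenced library. Dscc1 (0.97 ± 0.194, adjusted p = 0.00120) and Hells (0.64 ± 0.127, adjusted p = 0.00112) differed most. Etoposide against alisertib gave 28 higher and none lower by either tool (6.90% and 7.75% of all genes), with a median of 0.34, and 16 without Alisertib 3. Tyms was at 39.5, 39.4 and 38.96 CPM with etoposide and 27.2, 24.3 and 23.6 with alisertib (0.65 ± 0.106, adjusted p = 0.000252), without overlap, and Rrm2 differed by 0.71 ± 0.179, adjusted p = 0.00898. No member was lower at an unadjusted p under 0.05 in either of the last 2 comparisons. With the library number as a block, 27 members were higher with alisertib than with docetaxel and 34 with etoposide than with alisertib.

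**Figure D5:**
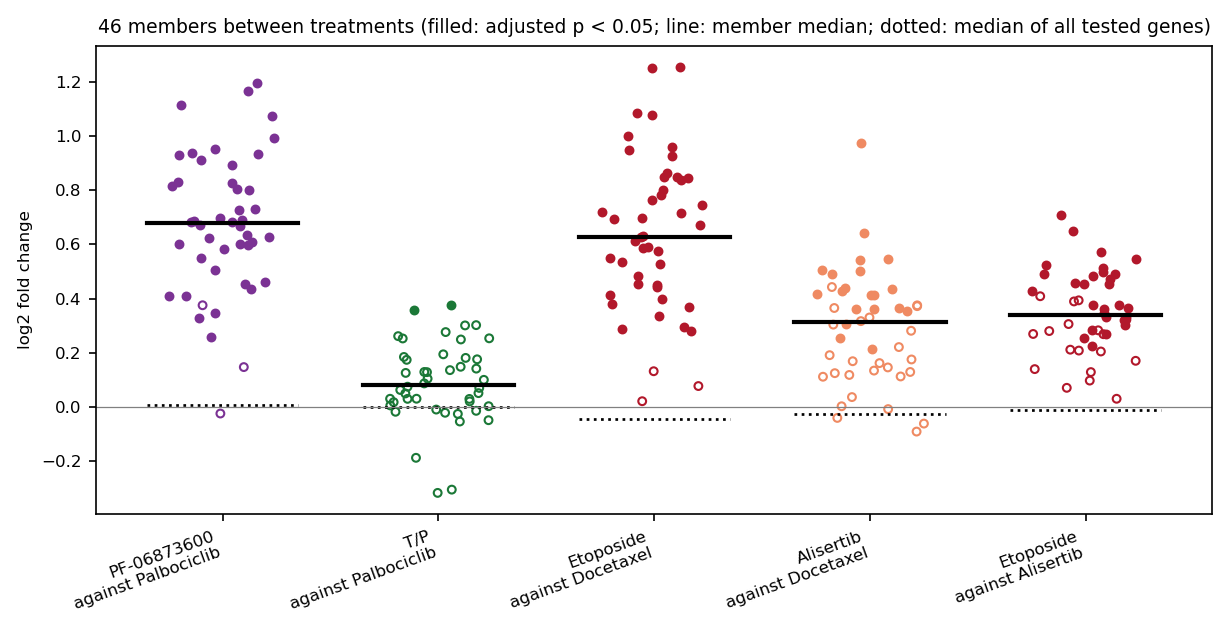
Log2 fold change of each of the 46 members in the 5 comparisons between treatments (filled points passed at adjusted p under 0.05), with the member median and the median of all tested genes. Most members lie above 0 in PF-06873600 against palbociclib and in etoposide against docetaxel, with medians of 0.68 and 0.63, and near 0 in T/P against palbociclib.

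In 6 of the 7 comparisons with DMSO the median change had the same sign in members with an E2F word upstream and in members without one, and with T/P the signs differed. The median log2 fold change of the 8 with a word and of the 29 without was 1.33 and 0.99 with etoposide, 0.99 and 0.52 with alisertib, 0.66 and 0.23 with docetaxel and 0.67 and 0.41 with PF-06873600. It was -0.07 and -0.27 with palbociclib, 0.08 and -0.12 with T/P and -1.06 and -0.69 with Nutlin. These medians are descriptions with no test.

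Other genes of DNA replication were read from lists that hold no member. Of all tested genes, 27.7% were higher and 26.9% lower with etoposide, 27.8% and 26.1% with alisertib and 26.5% and 22.5% with docetaxel. The shares were 17.9% and 14.1% with PF-06873600, 18.5% and 17.4% with palbociclib, 15.1% and 14.6% with T/P and 8.02% and 11.4% with Nutlin. Counts near these shares are no result about a list. Of 20 helicase loading and firing genes, 18 were higher and 2 lower with etoposide and with alisertib, 16 and 2 with docetaxel, 17 and 1 with PF-06873600, 2 and 8 with palbociclib, 3 and 6 with T/P, and 0 and 17 with Nutlin. Cdc45, part of the active helicase, was at 53.2 CPM with etoposide and 12.1 in DMSO, a log2 fold change of 2.13 ± 0.116 (SE, adjusted p = 3.62e-13, edgeR). Of 25 further genes of DNA synthesis, 16 were higher and 3 lower with etoposide, 12 and 3 with alisertib, 8 and 5 with docetaxel, 12 and 2 with PF-06873600, 2 and 7 with palbociclib, 1 and 3 with T/P, and 0 and 13 with Nutlin. Pold4, the fourth polymerase delta subunit, fell with docetaxel from 13.6 to 5.78 CPM (-1.22 ± 0.160, adjusted p = 1.36e-06, edgeR).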

How the data were processed

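Per the submitters' processing notes, the authors used fastp, STAR, featureCounts and DESeq2, with mm10 as genome build and no versions given. How the counting treated strand and reads with several alignments is not given in the sources used here. Raw counts of 55487 genes make up the deposited count table, and the deposited TPM table, used to compare levels between genes, holds the authors' TPM for 24621. Libraries were grouped by the treatment label. The files hold no columns of samples from outside the series.

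From the counts, 1 edgeR 4.0.16 quasi-likelihood model (R 4.3.3) was fitted to the 24 libraries together, with group means and TMM factors, leaving 16 residual degrees of freedom. Filtering by filterByExpr (minimum count 10, minimum total 15) left 15527 genes, with 99.9% of the counts. There were 12 comparisons, 7 with DMSO and 5 between treatments. P-values are two-sided and Benjamini-Hochberg adjusted over all tested genes, and a gene was called under 0.05. CPM are counts scaled by library size and TMM factor. At a lowest total of 21260781 counts, counting error is small for members above 10 CPM and larger for Dscc1, Fen1 and Gins3. A chi-square per degree of freedom of 2.82 to 50.2 between the 24 pairs of libraries within groups showed no repeated library. The script was checked on simulated counts.

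The members and gene lists were chosen with earlier results of these data known. In each comparison with DMSO the text names the 3 largest called rises and falls and Pcna, Tyms, Rrm2, Tk1 and Pola1, between treatments the 2 largest of each, and up to 2 genes of each other list, except that some are not reported here. Further members were picked by role after their values were seen. Gene positions came from GENCODE vM21 and upstream sequences from RefSeq GRCm38.p6. Alternatives were RLE factors, library totals, no filter, 1 CPM in 3 libraries, a block for the library number, only the 2 groups compared, DESeq2 1.42.0, no libraries numbered 2 and each library left out. Libraries with the same number deviated together (every correlation above 0.1) in 7 of 12 comparisons: etoposide, alisertib, PF-06873600 and Nutlin against DMSO and the 3 between etoposide, alisertib and docetaxel.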

Additional observations from a re-analysis of the deposited data

How the results depend on the processing

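Of 199 counts of called members under the alternatives other than leaving out single libraries, 183 stayed within 1.5 times the main count. The exceptions were these. Members higher with palbociclib than DMSO numbered 1 with RLE scaling, with no low-count filter and without the libraries numbered 2, and between 0 and 2 on leaving out single libraries. Members higher with docetaxel than DMSO numbered 36 with library totals. Members lower with etoposide than DMSO numbered 1 with library totals, with no filter and in a fit of the 2 groups alone. Members higher with T/P than DMSO numbered 1 with library totals, with no filter and without the libraries numbered 2, and 0 to 1 on leaving out single libraries. For T/P against palbociclib, members higher numbered 1 with library totals and with the 2 groups alone, 4 with no filter, 6 with the replicate block and 0 without the libraries numbered 2, and 1 was lower with the block. Leaving out single libraries gave 0 to 3 there, 9 to 19 for alisertib above docetaxel and 16 to 23 for etoposide above alisertib. The cause of these shifts was not tested, and leaving out libraries also leaves fewer samples. With library totals Rpa1 stood at 0.18 with alisertib and 0.20 with docetaxel, below the all-gene medians of 0.22 and 0.25. Its change of sign from the main fit is not read as a result about Rpa1, and its cause was not tested. Over 552 results of single members, DESeq2 lost 1 call and gained 7, the block gained 31 and lost none, and leaving out the libraries numbered 2 lost 28 and gained 8. In the 5 comparisons where the numbers do not pair the libraries the block counts share only a number. Members of few counts, such as Dscc1, are limited by depth.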

Other observations

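Genes of the later cell cycle, which are no members, were read from a list of 14 mitotic genes. Of all tested genes, 27.7% were higher with etoposide, 27.8% with alisertib, 26.5% with docetaxel and 17.9% with PF-06873600. The shares called lower were 17.4% with palbociclib, 14.6% with T/P and 11.4% with Nutlin. All 14 were higher with etoposide and with alisertib, 11 with docetaxel and 7 with PF-06873600, with none lower; 7 were lower with palbociclib, 5 with T/P and 14 with Nutlin, with none higher (edgeR, adjusted p under 0.05). Aurka, the mitotic kinase that alisertib inhibits, was at 94.7 CPM with alisertib and 24.6 in DMSO, a log2 fold change of 1.94 ± 0.153 (SE, adjusted p = 3.11e-10, edgeR). Its rise was not particular to alisertib. Aurka was at 93.1 CPM with etoposide (1.92 ± 0.153, adjusted p = 2.86e-10, edgeR), 63.7 with docetaxel and 43.8 with PF-06873600. Between etoposide and alisertib the 14 genes had a median log2 difference of -0.03, and the largest differences, in Cenpe (-0.38, adjusted p = 0.139) and Cdk1 (0.35, adjusted p = 0.105), did not pass (edgeR).

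Of 12 regulators of the entry into S phase, 11 were higher with etoposide, 10 with alisertib, 6 with docetaxel and 9 with PF-06873600, and 8 were lower with Nutlin. With palbociclib 3 were higher and 3 lower, and with T/P 3 and 2. Ccne1, the cyclin that activates CDK2, was higher with palbociclib (15.2 against 8.56 CPM, log2 fold change 0.83 ± 0.0951, adjusted p = 4.27e-07, edgeR). It was also higher with T/P (17.1 CPM, 1.00 ± 0.0944, adjusted p = 1.81e-08). In both groups most members were lower or not called. The Ccne1 rise was larger with PF-06873600 (22.7 CPM, 1.40 ± 0.0938, adjusted p = 7.56e-11, edgeR), and its mean with etoposide was 23.9 CPM. Higher Ccne1 was therefore not particular to palbociclib and T/P. Of 6 genes of cell cycle arrest, 3 were higher with alisertib, docetaxel, palbociclib, T/P and Nutlin and 2 with etoposide and PF-06873600. Of all tested genes, 27.7% were higher with etoposide, 27.8% with alisertib, 26.5% with docetaxel and 17.9% with PF-06873600. The shares higher and lower were 18.5% and 17.4% with palbociclib, 15.1% and 14.6% with T/P and 8.02% and 11.4% with Nutlin. The palbociclib and T/P counts of regulators lay not far from these shares. The counts over the 6 arrest genes are too small to be read against them. Cdkn1a, which encodes p21, was at 27.9 CPM in DMSO, 73.6 with etoposide, 71.6 with alisertib, 52.8 with docetaxel and 35.2 with Nutlin. Cdkn1a levels with PF-06873600, palbociclib and T/P are not reported here. Its group mean was highest with etoposide, the group that was also highest for most of the DNA synthesis genes, and a link between these was not tested.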
